A study of Homo sapiens with 24 samples.

Results

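The genes described here encode the proteins of the cytosolic ribosome. They were taken by name from the deposited gene table, as the RPL and RPS symbols of the large and the small subunit together with RPLP0, RPLP1, RPLP2, RPSA and RPL36AL, with pseudogenes left out. The rule found 85 genes among 60617 rows, 53 of the large and 32 of the small subunit. The rule reads gene names only.

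A cytosolic ribosome joins a small subunit, which reads the mRNA, to a large subunit, which forms the peptide bond and lets the new chain out through a tunnel. Each subunit is a core of ribosomal RNA clad in many proteins, nearly all present in a single copy, so that a cell needs their mRNAs in similar amounts. Most of these mRNAs begin at a C followed by a run of pyrimidines, the terminal oligopyrimidine (TOP) tract. Through it the kinase mTOR and the RNA-binding protein LARP1 set how strongly TOP mRNAs are translated and how stable they are. HER2, the receptor that trastuzumab binds, signals to mTOR through PI3 kinase and AKT.

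RNA was measured in SKBR3, a human breast carcinoma line in which ERBB2, the gene of HER2, is amplified. One group of cells was given a biosimilar of trastuzumab, called ApoTras in the labels' protocols, another was given Herceptin, the originator trastuzumab, and a control group was left untreated, with 8 libraries in each. Herceptin was given at 4 µg/ml per the labels, which leave the dose of the biosimilar unclear. In all groups the medium was changed on day 1 and day 4, and RNA was extracted on day 7. All groups are the same single line, no vehicle-only group is described, and nothing was found in the labels on batches. The study asks how closely the mRNAs of cells given the biosimilar resemble those of cells given Herceptin.

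The libraries held 9070186 to 12260086 expected counts, which RSEM estimates by dividing reads that fit several places. Levels below are CPM, counts scaled to a common library size with TMM factors. Each gene was tested in 1 edgeR quasi-likelihood fit of all 24 libraries, with Benjamini-Hochberg adjustment over 13536 genes and a threshold of 0.05. "Fell" and "rose" are used only of genes past it. The labels do not say that the 8 replicates of a group were independent cultures, so the p-values reflect library-to-library spread alone, some or all of which may be technical. Identity markers fitted the line: ERBB2 averaged 4174 CPM and KRT8 5070 CPM in control, while CDH1, PGR, VIM, PTPRC, PECAM1 and COL1A2 were too low to be tested and ESR1 averaged 1.53 CPM in control. As levels are relative to each library's total, they do not give the amount of an RNA per cell. The RNA came from whole cultures, so fewer cells with an RNA and less of it per cell cannot be told apart.

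Of the 85 genes, 83 passed the filter on low counts, 51 of the large and 32 of the small subunit. RPL10L was listed at 0 in all 24 libraries. RPL3L had between 0.276 and 1.33 CPM over the libraries. Neither was tested. Human ribosomal protein genes have many processed pseudogenes, and 55 members had counts that were not whole in over 50% of libraries, which marks reads shared with a similar sequence. Their values are less certain than those of the other 28 tested genes. RPL22L1, RPL34 and RPL28, described below, are among these 28.

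The sequences at the starts of the genes show the TOP tract. RefSeq (GRCh38.p14) listed promoters for 68 of the 85 genes. In 47 of the 68 (69.1%), a run of at least 5 pyrimidines began with a C exactly at a listed start, against 5.14% of the 27305 genes of the same table. Windows of 30 bases, 10 before the start and 20 from it, are printed 5′ to 3′ for genes that the results below turn on, with the pyrimidine run from a C at the start in capitals. The first set holds genes with large falls.
RPL34: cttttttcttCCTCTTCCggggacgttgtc
RPL9: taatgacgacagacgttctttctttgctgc
RPS10: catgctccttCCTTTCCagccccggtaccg
RPL39: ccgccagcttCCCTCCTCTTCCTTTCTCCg
RPSA: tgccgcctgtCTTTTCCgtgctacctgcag
RPS7: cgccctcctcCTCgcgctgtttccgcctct

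The second set holds genes with rises.
RPL14: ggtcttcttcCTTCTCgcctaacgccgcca
RPS16: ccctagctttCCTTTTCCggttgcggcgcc
RPS28: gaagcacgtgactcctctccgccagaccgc
RPL3: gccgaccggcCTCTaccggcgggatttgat

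The third set pairs paralogs with the genes they resemble.
RPL22L1: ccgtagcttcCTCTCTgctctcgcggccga
RPL22: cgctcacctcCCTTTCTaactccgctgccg
RPL36AL: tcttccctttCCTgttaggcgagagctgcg
RPL36A: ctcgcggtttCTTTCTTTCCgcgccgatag
RPS27L: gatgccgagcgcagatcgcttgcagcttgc
RPS27: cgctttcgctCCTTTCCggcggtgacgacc

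These windows lie at chr4:108620566-108620595 on the plus strand for RPL34, chr3:39406710-39406739 on the plus strand for RPSA, chr6:34426050-34426079 on the minus strand for RPS10 and chr19:8321486-8321515 on the plus strand for RPS28. Of the 9 genes that fell by more than 1.2-fold with the biosimilar, named below, 7 had a listed start. A tract of 6 to 19 bases stood in 5 of these 7, while RPS7 had a run of 3 and RPL9 had none at its listed start. Runs that begin beside a listed start, rather than at it, were not counted. The windows of RPL9 and RPS28 hold pyrimidine runs further on. Among the printed genes with rises, RPS16 had 8 and RPL14 had 6, whereas RPL3 had 4 and RPS28 had none at its listed start. A tract of at least 5 was found in 46 of 62 core genes (74.2%) and in 1 of 6 paralogs, RPL22L1. The core of ETS-family sites, CCGGAAG on either strand, was in the 300-base promoter of 35.3% of the 68 genes and of 12.2% of all genes. GGGCGG was in 58.8% against 48.3%, TATAAA in 10.3% against 14.0% and CACGTG in 7.35% against 8.77%, each on either strand. A match is a run of letters and not a measured site.

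Many ribosomal protein mRNAs fell with each antibody, by small amounts, and a minority rose. With the biosimilar 45 of 83 fell (54.2%), against 24.6% of all genes tested, and 7 rose (8.43%), against 23.4%. With Herceptin 31 fell (37.3%), against 23.8% of all genes, and 10 rose (12%), against 22.7%. The median log2 fold change was −0.12 with the biosimilar and −0.05 with Herceptin, where the medians of all genes were −0.0025 and −0.00052. The log2 fold change was below 0 for 68 members with the biosimilar (50.5% of all genes) and for 55 with Herceptin (50.1% of all genes). Falls reached log2 −0.60 and −0.42 (RPL22L1 in both), and rises 0.29 and 0.32 (RPS28 in both). Both subunits took part: 27 of 51 large and 18 of 32 small subunit genes fell with the biosimilar, and 18 and 13 with Herceptin. Both comparisons use the same 8 control libraries.

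Most members have short transcripts, and other genes of their lengths also had medians below 0. With the biosimilar the median of the members was −0.17 up to 500 bases, −0.17 from 500 to 700 and −0.07 from 700 to 1000, against −0.14, −0.11 and −0.12 for the other genes. Of the members in these classes 71.4%, 55.9% and 46.2% fell, and of the other genes 36.8%, 34.0% and 37.5%. With Herceptin the medians were −0.06, −0.06 and −0.05 for the members and −0.01, −0.05 and −0.08 for the other genes. Of the members 35.7%, 41.2% and 34.6% fell with Herceptin, and of the other genes 21.1%, 25.6% and 31.1%. Rises were few among other short genes as well. With the biosimilar 9.21%, 9.04% and 9.91% of the other genes in these classes rose, and with Herceptin 13.2%, 11.4% and 12.5%. Of the 14, 34 and 26 members in these classes, 0, 2 and 3 rose with the biosimilar and 1, 2 and 4 with Herceptin. The 8 members of 1000 to 2000 bases had medians of −0.002 with the biosimilar and 0.04 with Herceptin, and other genes −0.04 and −0.03. Of these 8 members 37.5% fell with the biosimilar and 25% with Herceptin, and of the other genes 30.4% and 28.4%. The differences between members and other genes of their lengths were not tested.

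Few of these changes were large. Against a threshold of 1.2-fold in place of no change, 9 genes fell with the biosimilar (3.83% of all genes) and 2 with Herceptin (2.90% of all genes), and none rose in either (5.01% and 5.07% of all genes). The 9 were RPL22L1, RPL39L, RPL34, RPL9, RPL39, RPSA, RPS10, RPS7 and RPS15A, and the 2 were RPL22L1 and RPL39L. The 95% interval of the fold change lay wholly within 1.2-fold in either direction for 42 of 83 genes with the biosimilar (43.1% of all genes) and for 59 with Herceptin (45.4% of all genes). Whole ranges of the groups came apart downwards in 16 genes with the biosimilar (7.73% of all genes) and in 9 with Herceptin (8.07%). They came apart upwards in 0 genes with the biosimilar (7.19%) and in 4 with Herceptin (8.95%), namely RPS28, RPS16, RPL3 and RPL28.

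**Figure D1:**
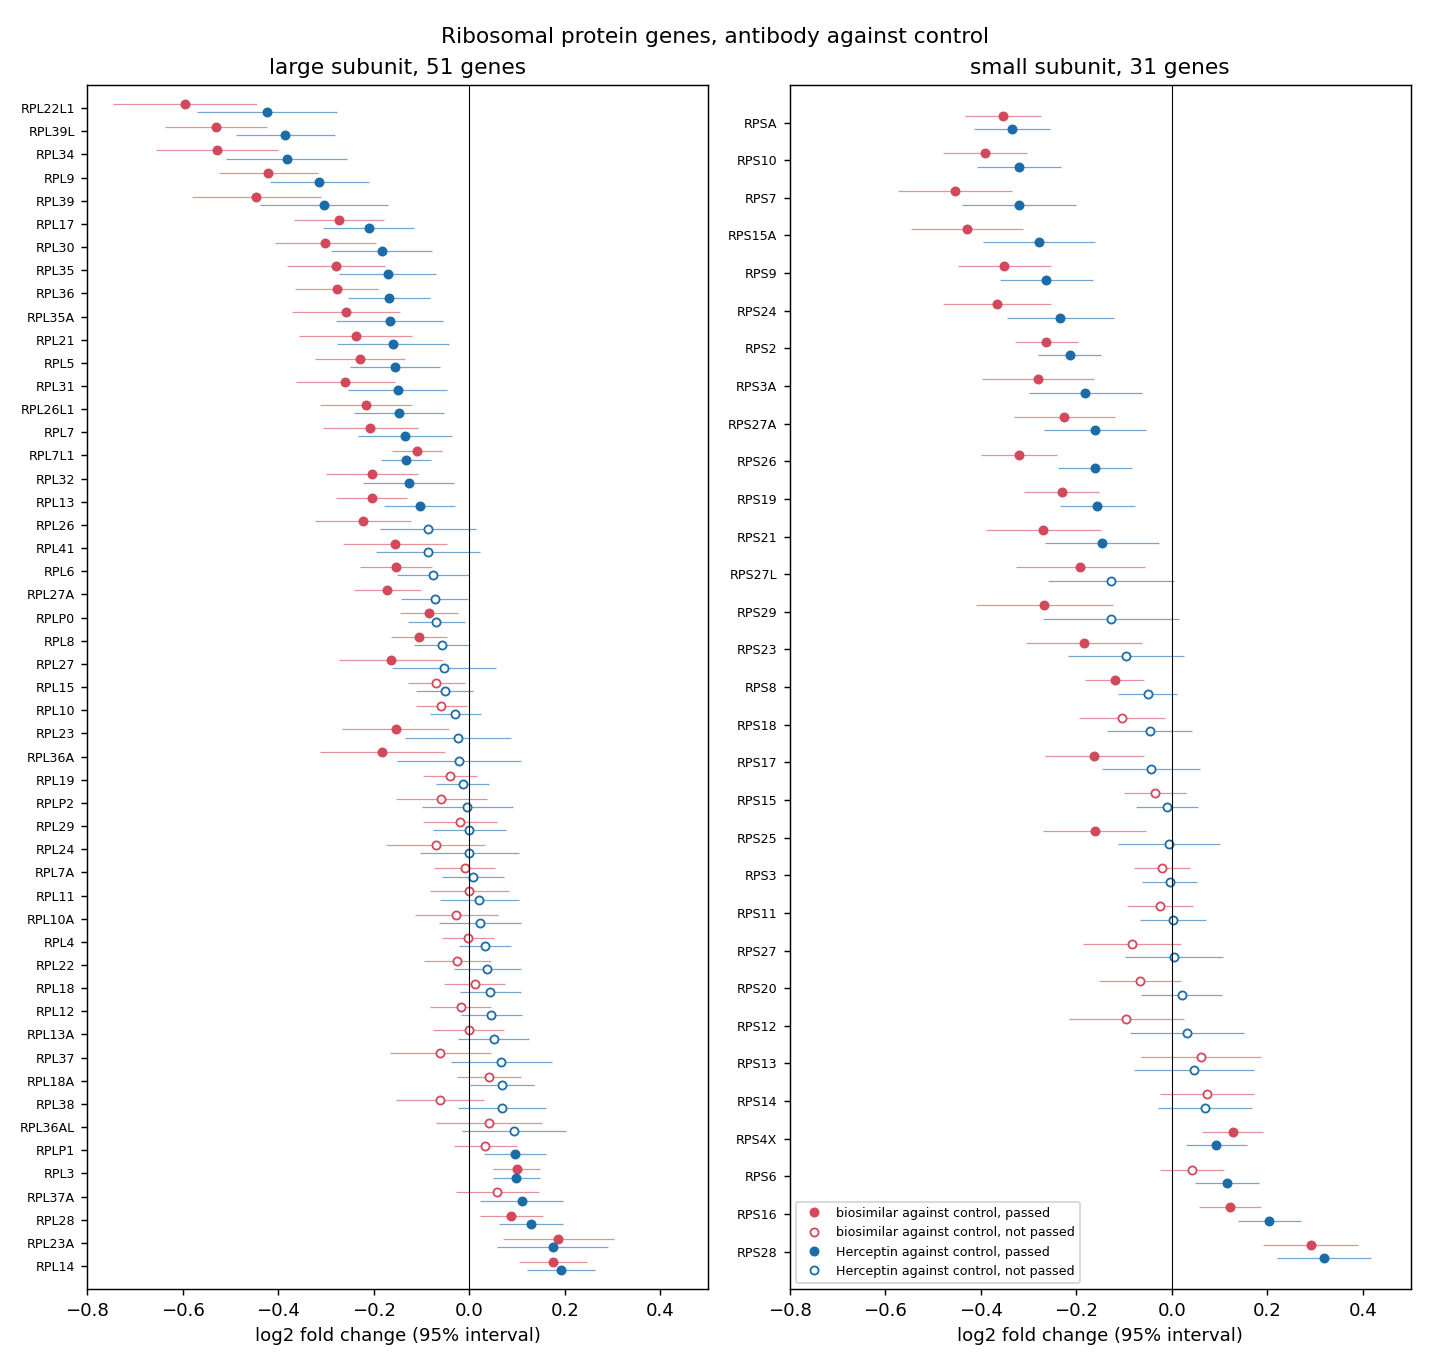
Log2 fold change against control of 82 of the 83 tested ribosomal protein genes (horizontal axis) with 95% intervals, 1 gene a row, for the biosimilar (red, upper) and Herceptin (blue, lower); filled points passed the adjusted threshold of 0.05. Most points lie left of 0, from −0.60 for RPL22L1 with the biosimilar, and 7 genes are filled to the right of 0 with the biosimilar and 10 with Herceptin.

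RPL34, a large subunit protein, had the largest fall of the core genes. It ran from 336 to 446 CPM with the biosimilar (median 381), from 393 to 458 CPM with Herceptin (median 414) and from 472 to 614 CPM in control (median 568). All 8 libraries of each antibody lay below every control library. Its log2 fold change was −0.53 with the biosimilar (SE 0.0617, edgeR adjusted p = 1.90e-07) and −0.38 with Herceptin (SE 0.0614, edgeR adjusted p = 1.77e-05). RPL34 lies at chr4:108620566-108630412 (GENCODE v29, GRCh38), and 25% of libraries held a fractional count for it.

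RPSA is the small subunit protein uS2, also known as the laminin receptor, and is the third most abundant gene of the set by CPM. It ran from 2025 to 2482 CPM with the biosimilar (median 2295), from 2125 to 2430 CPM with Herceptin (median 2300) and from 2601 to 3064 CPM in control (median 2992). The antibody groups overlapped each other almost fully and neither reached the control range. The log2 fold change was −0.35 with the biosimilar (SE 0.0389, edgeR adjusted p = 4.78e-09) and −0.33 with Herceptin (SE 0.0389, edgeR adjusted p = 1.51e-08). Every library had counts of RPSA that were not whole.

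RPS10, which sits in the head of the small subunit and is ubiquitinated when ribosomes collide, showed the same separation. It had 375 to 476 CPM with the biosimilar (median 429), 419 to 478 CPM with Herceptin (median 440) and 513 to 622 CPM in control (median 560). The log2 fold change was −0.39 with the biosimilar (edgeR adjusted p = 9.78e-09) and −0.32 with Herceptin (edgeR adjusted p = 3.64e-07). RPS7, a small subunit protein also known for binding MDM2, had 619 to 816 CPM with the biosimilar (median 717), 725 to 872 CPM with Herceptin (median 788) and 843 to 1099 CPM in control (median 999.6). It fell by 0.45 with the biosimilar and by 0.32 with Herceptin on the log2 scale (edgeR adjusted p = 6.48e-07 and 7.16e-05). The Herceptin range of RPS7 touched the control range and the biosimilar range did not.

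RPL9 and RPS15A also fell past 1.2-fold with the biosimilar. RPL9, a large subunit protein, had 324 to 394 CPM with the biosimilar (median 366), 363 to 419 CPM with Herceptin (median 392) and 420 to 541 CPM in control (median 502). It fell by 0.42 with the biosimilar and by 0.31 with Herceptin on the log2 scale (edgeR adjusted p = 1.47e-07 and 1.16e-05), and neither antibody range reached control. RPS15A, the small subunit protein uS8, had 470 to 605 CPM with the biosimilar (median 551), 568 to 661 CPM with Herceptin (median 590) and 630 to 807 CPM in control (median 744). It fell by 0.43 with the biosimilar and by 0.28 with Herceptin (edgeR adjusted p = 1.08e-06 and 2.72e-04), and the Herceptin range overlapped control.

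Other small subunit genes fell with both antibodies, among them RPS24, RPS9, RPS2, RPS26, RPS3A, RPS21, RPS19 and RPS27A. The Herceptin call of RPS21 held in 23 of the 35 settings described at the end. RPS29 and RPS23 fell with the biosimilar and did not pass with Herceptin. With the biosimilar RPS3A, RPS21, RPS29, RPS19, RPS27A and RPS23 had log2 fold changes of −0.28 (RPS3A) to −0.18 (RPS23). RPS24 averaged 1752 ± 123 CPM with the biosimilar, 1921 ± 124 CPM with Herceptin and 2259 ± 213 CPM in control, with log2 fold changes of −0.37 and −0.23 (edgeR adjusted p = 5.33e-06 and 0.00105). RPS9, the protein uS4 near the mRNA entry, averaged 406 ± 34.8 CPM with the biosimilar, 431 ± 22.8 CPM with Herceptin and 517 ± 38.1 CPM in control, with log2 fold changes of −0.35 and −0.26 (edgeR adjusted p = 7.06e-07 and 4.57e-05). RPS2, the protein uS5 of the mRNA entry, averaged 1153 ± 64.3 CPM with the biosimilar, 1193 ± 50.9 CPM with Herceptin and 1384 ± 70.8 CPM in control, with log2 fold changes of −0.26 and −0.21 (edgeR adjusted p = 1.15e-08 and 8.10e-07). RPS9 and RPS2 were lower in every antibody library than in any control library, and the counts of RPS9 were not whole in 12.5% of libraries.

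RPS28 went the other way. This small subunit protein, eS28, lies near the path by which the mRNA leaves the ribosome. It had 150 to 193 CPM with the biosimilar (median 168), 163 to 186 CPM with Herceptin (median 173) and 120 to 151 CPM in control (median 142). Every antibody library lay above the control median, and the Herceptin range was wholly above the control range. The log2 fold change was 0.29 with the biosimilar (SE 0.0486, edgeR adjusted p = 1.15e-05) and 0.32 with Herceptin (SE 0.0483, edgeR adjusted p = 2.84e-06). RPS28 lies at chr19:8321158-8323340, and 91.7% of libraries held a fractional count for it.

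RPL14, a large subunit protein, had 456 to 555 CPM with the biosimilar (median 508), 480 to 559 CPM with Herceptin (median 518) and 414 to 497 CPM in control (median 456). It rose by log2 0.17 with the biosimilar (edgeR adjusted p = 8.24e-05) and by 0.19 with Herceptin (edgeR adjusted p = 2.22e-05), with overlapping ranges. RPS16, the small subunit protein uS9 whose tail touches the tRNA in the P site, had 556 to 678 CPM with the biosimilar (median 589), 626 to 672 CPM with Herceptin (median 637) and 541 to 585 CPM in control (median 549). Its log2 fold change was 0.12 with the biosimilar (edgeR adjusted p = 0.00185) and 0.20 with Herceptin (edgeR adjusted p = 1.63e-06). Every Herceptin library lay above every control library, while the biosimilar libraries spread across both.

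RPL23A, the protein uL23 beside the tunnel exit, rose by log2 0.19 with the biosimilar (edgeR adjusted p = 0.00784) and 0.17 with Herceptin (edgeR adjusted p = 0.0129). RPL28, a large subunit protein with whole counts in every library, averaged 399 ± 26.0 CPM with the biosimilar, 411 ± 8.96 CPM with Herceptin and 376 ± 18.8 CPM in control, and rose by 0.09 (edgeR adjusted p = 0.0256) and by 0.13 (edgeR adjusted p = 0.00133). Its call with the biosimilar was lost without control replicate 6 or 7 or without biosimilar replicate 1 or 8, with adjusted p-values up to 0.0979. RPS4X, an X-linked small subunit protein, rose by 0.13 with the biosimilar (edgeR adjusted p = 9.01e-04) and 0.09 with Herceptin (edgeR adjusted p = 0.0136). RPL3, which reaches the peptidyl transferase centre of the large subunit, rose by 0.10 with each (edgeR adjusted p = 7.83e-04 with the biosimilar and 8.83e-04 with Herceptin), to means of 1116 ± 38.5 and 1115 ± 27.8 CPM against 1042 ± 17.8 CPM in control (SD, n = 8 each). RPS6, the small subunit protein that S6 kinases phosphorylate, averaged 1013 ± 66.2 CPM with the biosimilar, 1066 ± 38.6 CPM with Herceptin and 984 ± 44.6 CPM in control. It passed with Herceptin (log2 0.12, edgeR adjusted p = 0.00353) and not with the biosimilar (log2 0.04, edgeR adjusted p = 0.295). The direct difference, biosimilar over Herceptin, was −0.07 (95% interval −0.14 to −0.01, not adjusted for the number of genes). It did not pass, as no gene did between the antibodies in this fit.

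**Figure D2:**
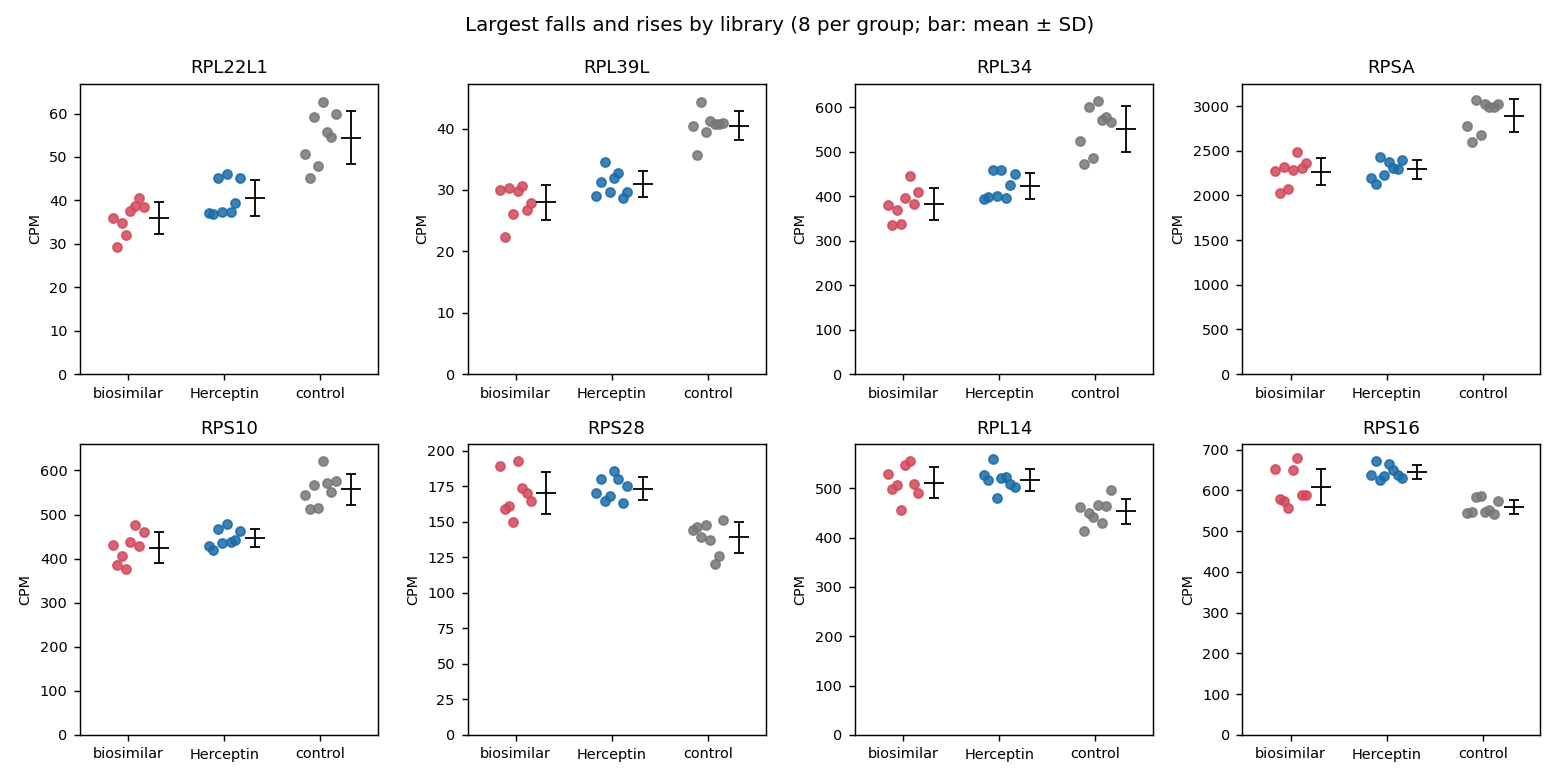
CPM by library of 8 ribosomal protein genes with large changes, with 8 points a group and the group mean ± SD beside them; all axes start at 0. RPL34, RPSA, RPL39L and RPS10 show antibody groups wholly below control, and RPS28, RPL14 and RPS16 lie higher with either antibody.

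Members were also counted by position in the ribosome, in small lists, and differences between positions were not tested. The stalk recruits the GTPase translation factors and is built from RPLP0, RPLP1 and RPLP2, with RPL12 at its base. Of these 4, RPLP0 fell with the biosimilar (log2 −0.09, edgeR adjusted p = 0.0168) and RPLP1 rose with Herceptin (log2 0.10, edgeR adjusted p = 0.0144). No other call was made among them, RPLP0 with Herceptin being close to the threshold (log2 −0.07, edgeR adjusted p = 0.0539). RPLP1 had 524 to 623 CPM with the biosimilar (median 597), 592 to 635 CPM with Herceptin (median 607) and 538 to 621 CPM in control (median 570), and RPLP2 averaged 392 ± 29, 407 ± 22.0 and 408 ± 32.4 CPM in the same order. RPL12 averaged 461 ± 28.5 CPM with the biosimilar, 482 ± 19 CPM with Herceptin and 467 ± 15.6 CPM in control. Without biosimilar replicate 2 the fall of RPLP0 no longer passed (adjusted p = 0.0597).

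The proteins that ring the tunnel exit meet the new chain and hold the factors that bind it, such as the signal recognition particle. Of 7 listed, 5 fell and 1 rose with the biosimilar (24.6% and 23.4% of all genes). With Herceptin 4 of the 7 fell and 1 rose (23.8% and 22.7% of all genes). The median log2 fold changes of the 7 were −0.26 with the biosimilar and −0.15 with Herceptin. RPL39, a small protein that lines the tunnel, fell most of the 7. It had 348 to 483 CPM with the biosimilar (median 416), 425 to 510 CPM with Herceptin (median 450) and 484 to 645 CPM in control (median 578). Its log2 fold change was −0.45 with the biosimilar (edgeR adjusted p = 4.89e-06) and −0.31 with Herceptin (edgeR adjusted p = 4.35e-04). RPL17, RPL31 and RPL35 fell in both comparisons, with −0.27, −0.26 and −0.28 for the biosimilar and −0.21, −0.15 and −0.17 for Herceptin. RPL26 fell with the biosimilar (−0.22) and did not pass with Herceptin (−0.09). RPL19 passed in neither, and RPL23A rose as given above.

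RPL5 and RPL11 join the 5S ribosomal RNA before they enter the large subunit, and the same complex can bind MDM2 when ribosome assembly is disturbed. Only RPL5 of the pair passed. It had 771 to 906 CPM with the biosimilar (median 841), 844 to 941 CPM with Herceptin (median 876) and 825 to 1106 CPM in control (median 985). It fell by 0.23 with the biosimilar (edgeR adjusted p = 1.68e-04) and by 0.16 with Herceptin (edgeR adjusted p = 0.00678). RPL11 averaged 524 ± 39.9 CPM with the biosimilar, 532 ± 22.6 CPM with Herceptin and 524 ± 33.3 CPM in control, with log2 fold changes of −0.00 (95% interval −0.08 to 0.08) and 0.02 (−0.06 to 0.10).

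Proteins shared by the ribosomes of all domains of life and those particular to some domains were counted apart, and the difference between them was not tested. Of all genes tested 24.6% fell and 23.4% rose with the biosimilar, and 23.8% fell and 22.7% rose with Herceptin. Of 33 shared proteins 16 fell (48.5%) and 3 rose (9.09%) with the biosimilar, and 10 fell (30.3%) and 3 rose (9.09%) with Herceptin. Among the 44 other core proteins 24 fell (54.5%) and 4 rose (9.09%) with the biosimilar, and 17 fell (38.6%) and 7 rose (15.9%) with Herceptin. Of 20 ribosomal protein genes mutated in Diamond-Blackfan anaemia, an inherited failure of red cell production, 14 fell and 1 (RPS28) rose with the biosimilar, and 10 fell and RPS28 rose with Herceptin. RPS19, the most frequently mutated of them, averaged 542 ± 45.1 CPM with the biosimilar, 571 ± 21.6 CPM with Herceptin and 636 ± 30.3 CPM in control. It fell by 0.23 and by 0.16 on the log2 scale (edgeR adjusted p = 7.64e-06 and 0.00117).

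Some ribosomal proteins have a paralog that can take their place or is used in other tissues. Of 6 tested paralogs 5 fell with the biosimilar (24.6% of all genes) and 4 with Herceptin (23.8% of all genes). None rose in either (23.4% and 22.7% of all genes). RPL22L1, the paralog of RPL22, had 29.4 to 40.6 CPM with the biosimilar (median 36.8), 36.9 to 46.1 CPM with Herceptin (median 38.3) and 45.1 to 62.6 CPM in control (median 55.2). The biosimilar range lay wholly below control and the Herceptin range overlapped it at one end. Its log2 fold change was −0.60 with the biosimilar (SE 0.0731, edgeR adjusted p = 1.57e-07) and −0.42 with Herceptin (SE 0.0709, edgeR adjusted p = 1.82e-05), and its counts were whole in every library. RPL22 itself averaged 859 ± 42.5 CPM with the biosimilar, 897 ± 32.4 CPM with Herceptin and 874 ± 60.9 CPM in control, with log2 fold changes of −0.03 and 0.04 that did not pass (edgeR adjusted p = 0.583 and 0.408).

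RPL39L, a paralog of RPL39 best known from the mouse testis, had 22.3 to 30.6 CPM with the biosimilar (median 28.9), 28.7 to 34.6 CPM with Herceptin (median 30.5) and 35.8 to 44.4 CPM in control (median 40.8). Both antibody ranges lay below control. The log2 fold change was −0.53 with the biosimilar (SE 0.0528, edgeR adjusted p = 5.92e-11) and −0.39 with Herceptin (SE 0.0512, edgeR adjusted p = 4.88e-08). Its parent RPL39 fell too, as given above. RPL26L1 fell by 0.22 with the biosimilar and 0.15 with Herceptin (edgeR adjusted p = 2.13e-04 and 0.00829), and RPL7L1, whose protein acts in ribosome assembly, fell by 0.11 and 0.13 (edgeR adjusted p = 5.21e-04 and 4.01e-05). RPL7L1 had 149 to 162 CPM with the biosimilar, 146 to 157 CPM with Herceptin and 162 to 175 CPM in control, a small but clean separation.

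RPS27L, a p53-inducible paralog of RPS27, averaged 29.8 ± 3.37 CPM with the biosimilar, 31.2 ± 2.16 CPM with Herceptin and 34.2 ± 3.92 CPM in control. It passed with the biosimilar (log2 −0.19, edgeR adjusted p = 0.0165) and not with Herceptin (log2 −0.13, edgeR adjusted p = 0.107), and the biosimilar over Herceptin difference was −0.06 (95% interval −0.20 to 0.07). RPS27 averaged 859 ± 70.2, 914 ± 62.7 and 910 ± 61.5 CPM with the biosimilar, with Herceptin and in control, and passed in neither comparison. RPL36AL was the paralog above 0 in both comparisons, with 0.04 for the biosimilar and 0.09 for Herceptin, and did not pass (edgeR adjusted p = 0.575 and 0.16). RPL36A, its parent, averaged 380 ± 35.9 CPM with the biosimilar, 425 ± 31.4 CPM with Herceptin and 432 ± 40.9 CPM in control. The fall of RPL36A with the biosimilar (log2 −0.18, edgeR adjusted p = 0.0199) was lost without biosimilar replicate 2 (adjusted p = 0.0501) and with no filter on low counts (0.0573).

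Levels varied widely among the core genes, and 2 of them stood far above the rest. Per kb of transcript the 75 core members other than RPL7 and RPL19 had between 197 and 3683 CPM in control, with a median of 969 CPM. RPL7 had 10738 CPM per kb in control and RPL19 had 10794, and together they held 22.9% of all counts of the set in control. RPL7 is a large subunit protein encoded on chromosome 8, with counts that were not whole in any library, and RPL19, a large subunit protein beside the tunnel exit, had counts that were not whole in 95.8% of libraries. RPL19 lies at chr17:39200283-39204732 and ends 483182 bases before the start of ERBB2. ERBB2 rose by log2 0.13 with the biosimilar and 0.11 with Herceptin (edgeR adjusted p = 2.92e-05 and 1.92e-04).

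RPL19 ran from 7262 to 8049 CPM with the biosimilar (median 7837), from 7526 to 8386 CPM with Herceptin (median 7867) and from 7677 to 8643 CPM in control (median 7858). The 3 ranges overlapped in part, and the log2 fold changes were −0.04 (95% interval −0.10 to 0.02) and −0.01. RPL7 ran from 6767 to 8274 CPM with the biosimilar (median 7431), from 7486 to 8458 CPM with Herceptin (median 7774) and from 7399 to 9716 CPM in control (median 8791). It fell by 0.21 with the biosimilar (edgeR adjusted p = 8.29e-04) and by 0.14 with Herceptin (edgeR adjusted p = 0.0233). The Herceptin call was lost without control replicate 3 (adjusted p = 0.061) and without control replicate 6 (0.0509). The paralogs stood far below their parents, with RPL22L1 at 93.4, RPL26L1 at 62.4, RPL39L at 55.8, RPL7L1 at 48.4 and RPS27L at 47.9 CPM per kb in control, and RPL36AL at 167.

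The 85 genes together held 6.61 ± 0.382% of all counts with the biosimilar, 6.88 ± 0.230% with Herceptin and 7.26 ± 0.32% in control (SD, n = 8 each). The ranges were 6.08% to 7.27%, 6.66% to 7.24% and 6.79% to 7.63% in the same order, so that the groups overlapped. Large subunit genes held 4.20 ± 0.223%, 4.36 ± 0.137% and 4.54 ± 0.194%, and small subunit genes 2.41 ± 0.159%, 2.52 ± 0.0943% and 2.72 ± 0.129%, again with the biosimilar, with Herceptin and in control. Mitochondrially encoded genes held 4.28 ± 0.169% with the biosimilar, 4.09 ± 0.264% with Herceptin and 3.27 ± 0.247% in control. With scaling factors made without ribosomal protein and mitochondrial genes, 49 members fell and 7 rose with the biosimilar (25.8% and 22.4% of all genes). With Herceptin 32 fell and 10 rose under this scaling (24.6% and 21.8% of all genes). The median log2 fold change of all genes was then −0.0102 with the biosimilar and −0.0061 with Herceptin.

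**Figure D3:**
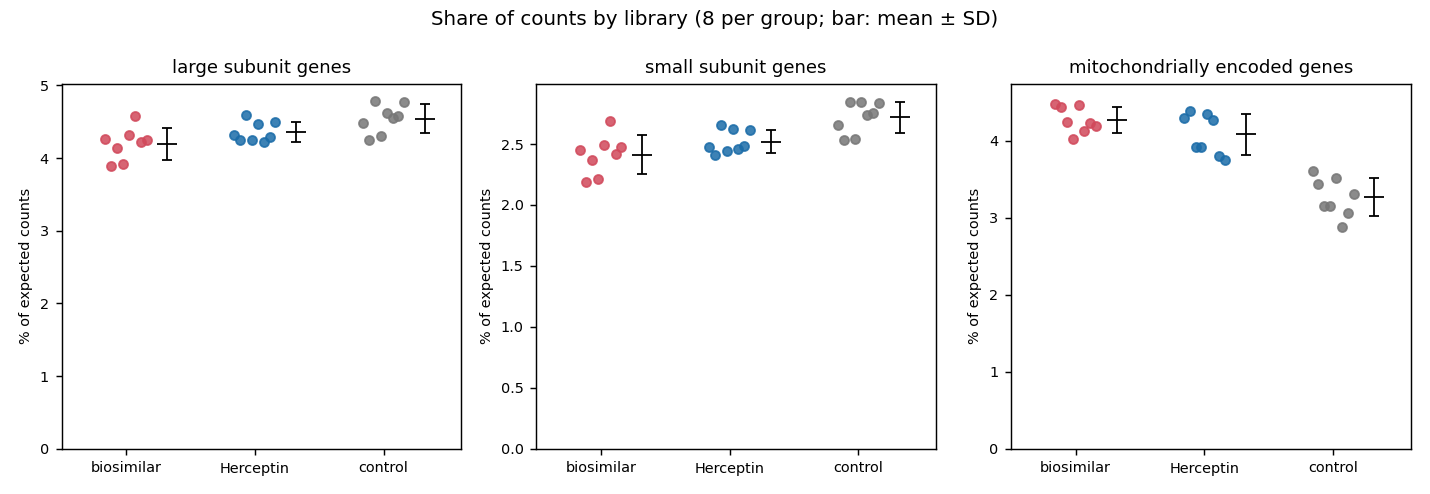
Percent of each library's expected counts in large subunit, small subunit and mitochondrially encoded genes, with 8 points a group and the mean ± SD beside them; axes start at 0. Small subunit genes hold 2.41% with the biosimilar, 2.52% with Herceptin and 2.72% in control on average, and mitochondrial genes 4.28%, 4.09% and 3.27%.

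The members varied together between libraries of 1 group. After each group's mean was taken away, the median pairwise Pearson r over the 24 libraries was 0.66 among the 83 members and 0.035 among 2211 other genes of at least 100 CPM, as a description of libraries that share a depth and a scaling factor. In 74 of 83 members r with the mean of the others was over 0.5. RPS15A (0.96) and RPS18 (0.95) followed the others most closely. RPL7A (0.16), RPL18 (0.21) and RPL28 (0.24) did so least of the core genes, and RPL7L1 went against them (−0.39). The mean deviation of the members was lowest in biosimilar replicate 2 (log2 −0.14) and replicate 4 (−0.12) and highest in biosimilar replicate 6 (0.14). The biosimilar group was thus spread most widely. Control ran from −0.11 (replicate 2) to 0.09 (replicate 8), and the Herceptin group was the narrowest, from −0.05 to 0.07.

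With the reported settings no member passed the test between cells given the biosimilar and cells given Herceptin. In edgeR 0 of 83 members fell and 0 rose, as did 0% of the 13536 genes, and DESeq2 and limma-voom also called 0 members. With no filter on low counts 1 member, RPS26, was called lower with the biosimilar. With the replicate number as a block RPS26, RPL26 and RPS15A were called lower, though the replicate numbers share no source in the labels. At an unadjusted p under 0.05, 30 members were lower with the biosimilar (2.99% of all genes) and 0 were higher (2.34% of all genes). A log2 fold change below 0 was found in 76 of 83 members, against 50.8% of all genes, with a median of −0.07. The ranges of the antibody groups overlapped for all 83 members, where 0.0148% of all genes came apart downwards and 0.0148% upwards. Because the members vary together, these genes are far from independent. The 95% intervals bounded every member between 0.798-fold and 1.10-fold, biosimilar over Herceptin, and lay within 1.2-fold for 76 of 83 members (72.4% of all genes).

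RPS26, a small subunit protein near the mRNA exit, had the smallest p. It had 156 to 194 CPM with the biosimilar (median 178) and 188 to 213 CPM with Herceptin (median 200), with overlapping ranges and a log2 fold change of −0.16 (95% interval −0.24 to −0.08, edgeR adjusted p = 0.273, or 0.00844 with no filter on low counts). RPS25, which some viral mRNAs need to start translation, averaged 547 ± 44.9 CPM with the biosimilar and 610 ± 36.0 CPM with Herceptin (−0.16, 95% interval −0.26 to −0.05, edgeR adjusted p = 0.797). RPL27A, a large subunit protein, averaged 752 ± 50.2 CPM with the biosimilar and 806 ± 35.7 CPM with Herceptin (−0.10, 95% interval −0.17 to −0.03, edgeR adjusted p = 0.797). The smallest p among members above 0 belonged to RPS4X (0.03, 95% interval −0.03 to 0.10), followed by RPL7L1 (0.02, −0.03 to 0.08).

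**Figure D4:**
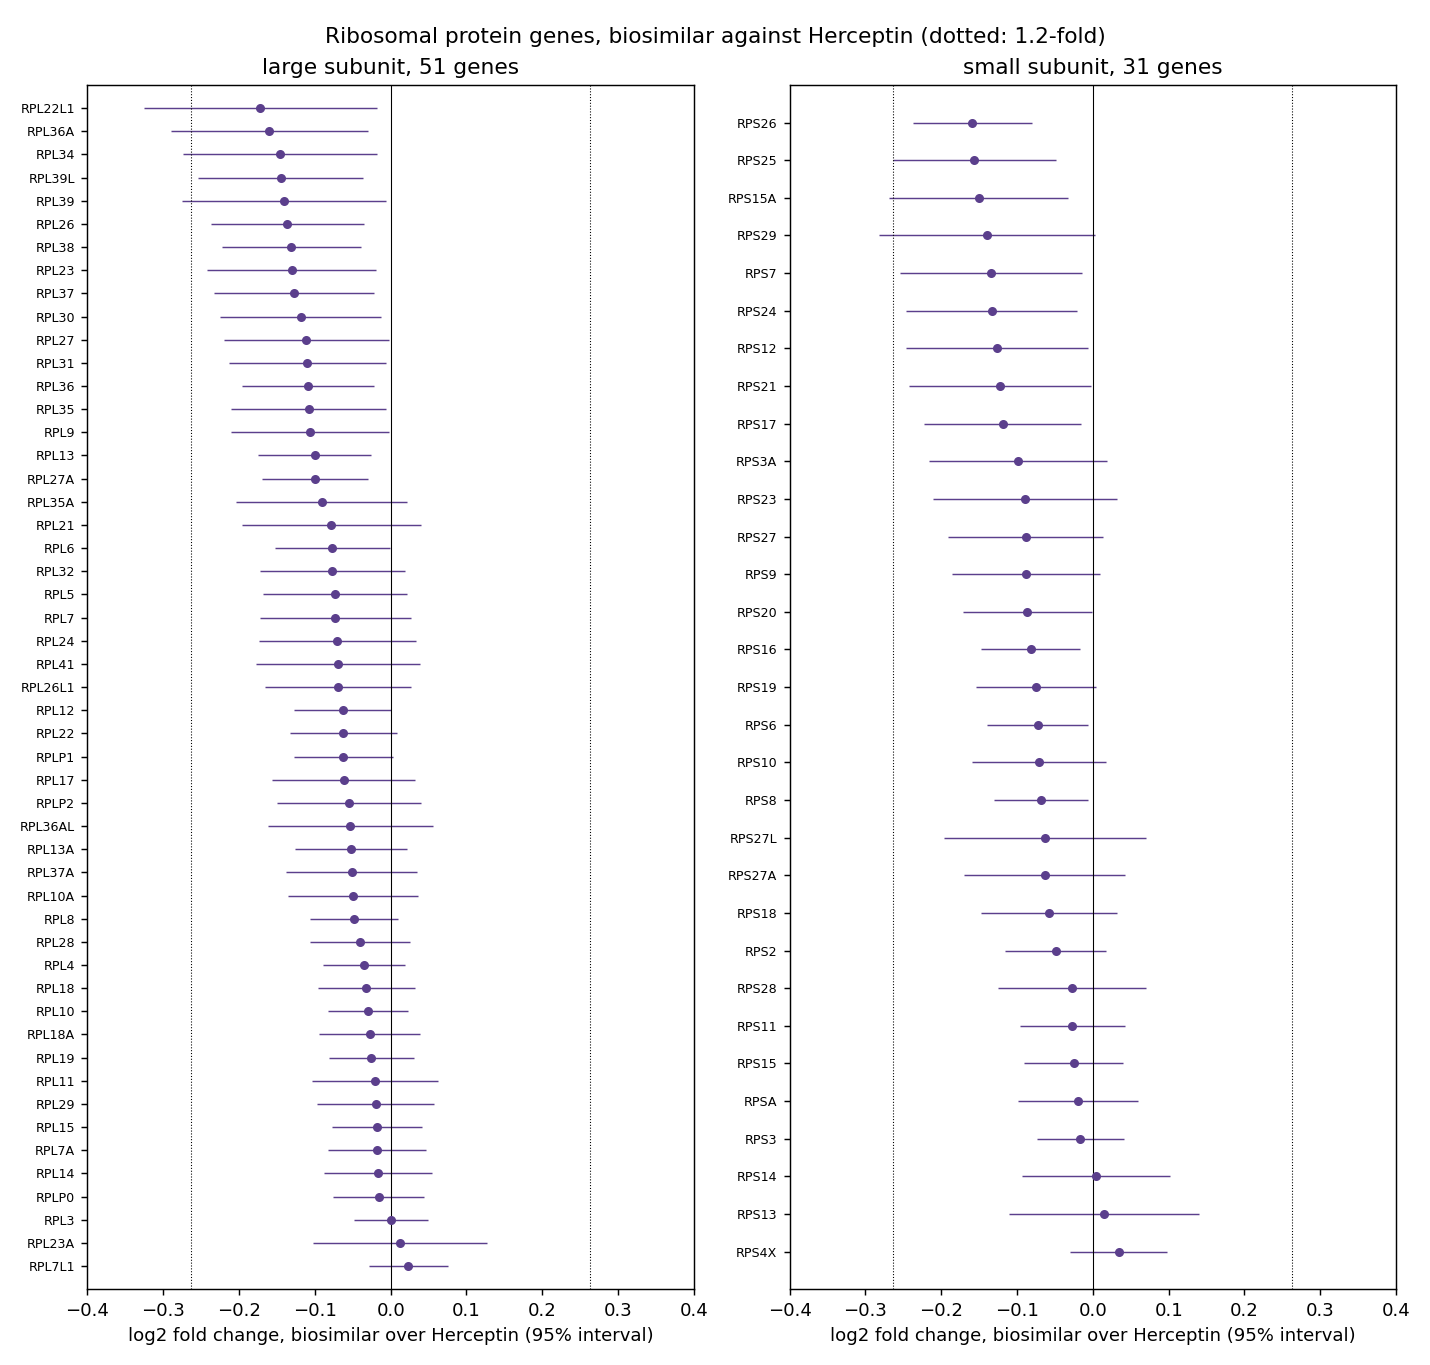
Log2 fold change of the biosimilar over Herceptin (horizontal axis) with 95% intervals for 82 of the 83 tested genes, 1 gene a row; dotted lines mark 1.2-fold. Of the points 76 lie left of 0, RPS26 at −0.16 among them, and the intervals reach from 0.798-fold to 1.10-fold.

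Fold changes were set against transcript length. Over the 83 members, Spearman's rho between length and the log2 fold change was 0.56 for the biosimilar against Herceptin, 0.26 for the biosimilar against control and 0.12 for Herceptin against control, as descriptions over genes that share libraries. In the biosimilar against Herceptin comparison the median was −0.12 for the 14 members of at most 500 bases, −0.08 for 34 of 500 to 700 bases, −0.05 for 26 of 700 to 1000 and −0.03 for 8 of 1000 to 2000. Other genes of the same lengths had medians of −0.09, −0.06, −0.04 and −0.01. The part of length in the difference was not tested. Examples of short members were RPS29, of 303 bases, at −0.14, and RPL38, of 396 bases, at −0.13, and long ones were RPL3, of 1282 bases, at 0.00 and RPS4X, of 1206 bases, at 0.03.

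**Figure D5:**
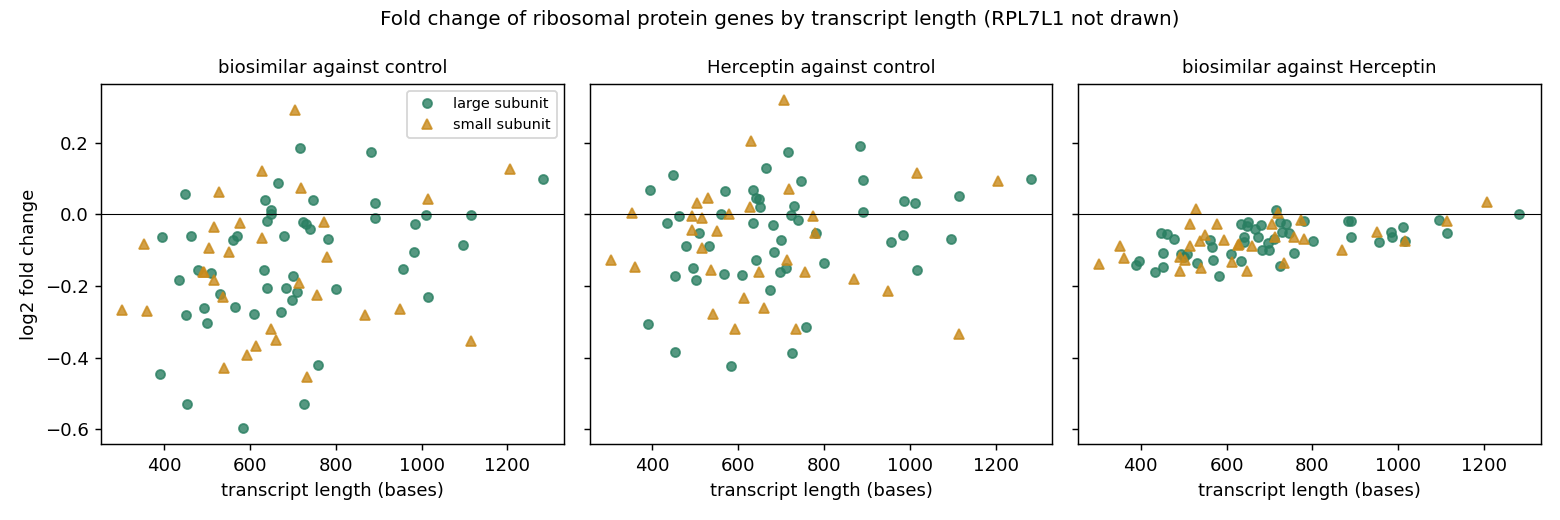
Log2 fold change (vertical axis) against transcript length in bases (horizontal axis) for all but 2 of the tested members, large subunit as circles and small subunit as triangles; RPL7L1, of 3471 bases, is 1 of those not drawn. The slope is visible for the biosimilar against Herceptin (rho = 0.56) and weaker in the comparisons with control (0.26 and 0.12).

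Members with and without a TOP tract at a listed start included falls and rises. Among the 47 tested members with a tract of at least 5, 24 fell and 3 rose with the biosimilar (median log2 −0.10), and 17 fell and 6 rose with Herceptin (−0.03). Among the 20 tested members whose listed starts lacked one, 11 fell and 3 rose with the biosimilar (−0.13), and 7 fell and 3 rose with Herceptin (−0.06). Of all genes 24.6% fell and 23.4% rose with the biosimilar, and 23.8% fell and 22.7% rose with Herceptin. A member whose run begins beside a listed start, rather than at it, is counted here as lacking a tract. The difference between these sets was not tested.

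Of 20 genes outside the set that encode TOP mRNAs, 4 fell and 6 rose with the biosimilar, where 24.6% of all genes fell and 23.4% rose. With Herceptin 2 fell and 5 rose, where 23.8% of all genes fell and 22.7% rose. PABPC1, the poly(A)-binding protein, rose by log2 0.16 with the biosimilar and 0.18 with Herceptin (edgeR adjusted p = 1.02e-05 and 1.18e-06). EIF4B, an initiation factor and S6 kinase substrate, rose by 0.16 and 0.13 (edgeR adjusted p = 2.32e-07 and 1.12e-05). FAU, which encodes the small subunit protein eS30 fused to a ubiquitin-like domain and is not matched by the rule, fell by 0.30 and by 0.21 (edgeR adjusted p = 1.70e-07 and 6.21e-05). RACK1, a small subunit protein that is also outside the rule, passed in neither comparison.

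Of 9 regulators of TOP mRNA translation 4 fell with the biosimilar (24.6% of all genes) and 3 with Herceptin (23.8% of all genes), and none rose. RPS6KB2, an S6 kinase, fell by 0.34 with the biosimilar and by 0.35 with Herceptin on the log2 scale (edgeR adjusted p = 2.79e-10 and 1.02e-10). EIF4E, the cap-binding protein, fell by 0.19 and by 0.24 (edgeR adjusted p = 2.33e-04 and 1.43e-05), and EIF4EBP1, its mTOR-controlled inhibitor, by 0.18 and by 0.19 (edgeR adjusted p = 0.00105 and 6.19e-04). LARP1 averaged 519 ± 35.9 CPM with the biosimilar, 515 ± 20.8 CPM with Herceptin and 521 ± 24.4 CPM in control and did not pass. Of 12 chaperones and importers of ribosomal proteins 7 fell with the biosimilar (24.6% of all genes) and 8 with Herceptin (23.8% of all genes). None of these 12 rose in either comparison (23.4% and 22.7% of all genes). KPNB1, an importin, fell by 0.23 and by 0.24 (edgeR adjusted p = 8.91e-10 and 5.17e-10), and HEATR3, which serves the import of RPL5, fell by 0.38 and by 0.34 (edgeR adjusted p = 9.34e-09 and 5.68e-08). Of 4 factors that bind idle ribosomes 3 fell with the biosimilar (24.6% of all genes) and 2 with Herceptin (23.8% of all genes). IFRD2 fell by 0.28 and by 0.27 (edgeR adjusted p = 2.48e-08 and 3.58e-08), and SERBP1 by 0.10 and by 0.13 (edgeR adjusted p = 8.20e-04 and 8.83e-05).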

How the data were processed

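PolyA RNA of 24 SKBR3 samples was read as paired ends from stranded libraries, per the labels' protocols. The deposited table held expected counts per gene, made with STAR and RSEM on GRCh38.p12 after FastQC, per the submitters' processing notes. No annotation release, strand setting or RSEM option was stated there. Of these values 9.29% were not whole. The deposited table also gives a transcript length per gene, used for levels per kb.

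Expected counts were rounded, which moved a total by at most 4.56e-04%. edgeR 4.0.16 (R 4.3.3, limma 3.58.1) was run with TMM factors, filterByExpr, robust quasi-likelihood fits and 1 coefficient a group, and checked on simulated counts. Tests were two-sided. The common biological coefficient of variation was 4.90%. Groups came from the treatment labels. Each library counted once. Pairs of libraries within a group differed by more than sampling noise, which does not show that they came from separate cultures. Gene positions are from GENCODE 29 and start sequences from RefSeq.

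The members and gene lists were chosen with earlier results of these data known. The text names the largest changes, the most abundant members, paralogs with parents, the stalk, RPL5 and RPL11, the smallest p between the antibodies and up to 3 genes of each other list. Further members were named after their values were seen, and single results of some genes are not reported here. Alternatives were DESeq2 1.42.0, limma-voom, other scalings and filters, only the groups compared, a replicate block, counts summed with processed pseudogenes, a 1.2-fold threshold and leaving out each library.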

Additional observations from a re-analysis of the deposited data

Results flagged for a closer look

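In 3 of the 108 groups of 8 libraries examined (named members in each group), 1 library stood far from the other 7 by Dixon's ratio of its gap to the group's range. Chance flags about 1 group in 20. RPL5 had 940.7 CPM in Herceptin replicate 3, where the other Herceptin libraries had 844 to 888 CPM. RPLP1 had 634.6 CPM in Herceptin replicate 5, where the others had 592 to 612 CPM. RPS4X had 1291 CPM in control replicate 8, where the others had 1078 to 1171 CPM.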

How the results depend on the processing

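Over 35 settings, the reported one included and the 1.2-fold threshold left out, 42 of the members that fell with the biosimilar and 25 of those that fell with Herceptin did so every time, as did 6 and 9 of those that rose, and none changed direction. These settings are not independent checks, as they share most of the data. In each comparison 8 of the 24 fits that leave out a library drop one of the group not compared. Such a library enters only through the shared fit. Against 1.2-fold, 9 fell and 0 rose with the biosimilar, and 2 fell and 0 rose with Herceptin. Leaving out 1 library at a time gave 42 to 49 members fallen, 6 to 7 risen and medians of −0.141 to −0.107 with the biosimilar, and 27 to 33 fallen, 9 to 10 risen and medians of −0.0626 to −0.0382 with Herceptin. Between the antibodies it gave 0 calls each time and medians of −0.0964 (without biosimilar replicate 6) to −0.0501 (without biosimilar replicate 2). With no filter on low counts 1 member, RPS26, was lower with the biosimilar than with Herceptin (adjusted p = 0.00844). The cause was not tested. Counts summed with the processed pseudogenes gave 45 fallen and 7 risen with the biosimilar (24.7% and 23.4% of all genes). They gave 31 fallen and 10 risen with Herceptin (23.8% and 22.7% of all genes).

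The replicate numbers share no source in the labels, and 1 of 24 same-numbered pairs of libraries correlated above 0.1 (−0.085 to 0.10). With the number as a block, 51 members fell and 7 rose with the biosimilar (25.5% and 24.2% of all genes) and 37 fell and 11 rose with Herceptin (25.1% and 23.6%). With the block RPS26, RPL26 and RPS15A, 3 of 14 genes called (0.103%), were lower with the biosimilar than with Herceptin (adjusted p = 0.0366 for each). Depth was ample for core members and lowest for the paralogs under 60 CPM.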
